A study of Mus musculus with 6 samples.

Results

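The laminin chains were followed by symbol in the deposited count table, where 9 listed genes (Lama1, Lama2, Lama3, Lama4, Lama5, Lamb1, Lamb2, Lamb3 and Lamc1) were found among 21959 genes. Lamc3, a gamma chain gene that was not on that list, was added so that more trimers could be read, which made 10 chains in all. RNA was sequenced from a mouse gastric adenocarcinoma line, labelled MPC, and from its paclitaxel (PTX)-resistant derivative, labelled MPC-PTX, with 3 libraries per line. The paper calls the lines MTC and MTC-R. Both lines have the genotype CDH1-/-;Trp53-/-, and MPC is labelled as the control. They descend from gastric organoids of C57BL/6J mice that carried Mist1-CreER and floxed alleles of Cdh1 and Trp53 (flox/flox), both deleted ex vivo, by way of a subcutaneous tumour in a BALB/c nude mouse. MPC-PTX was raised from MPC by about 30 cycles of PTX exposure and recovery in fresh medium. Both lines went through monoclonal selection, so a difference between PTX-selected and control cells cannot be told apart from a difference between clones. The labels put all 6 libraries in the same batch and do not say whether replicates were separate cultures, so p-values measure only the spread between these libraries, which may be technical.

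Laminins are the large glycoproteins of the basement membrane, the sheet of matrix under epithelia. Each is a coiled-coil trimer of 1 alpha, 1 beta and 1 gamma chain and is named by the numbers of its chains, so that laminin-511 holds the products of Lama5, Lamb1 and Lamc1, and laminin-521 has that of Lamb2 in place of Lamb1. Lama3 and Lamb3 encode the alpha and beta chains of laminin-332. The alpha chain carries the main sites for cell receptors, and the gamma1 chain carries the site that binds nidogen, which links laminin to collagen IV. Laminin-332 anchors epithelial cells through integrins, while laminin-511 and laminin-521 are widespread in the basement membranes of mature epithelia.

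The chains did not move together. Among the listed chains, Lamc1 rose in MPC-PTX and Lama3, Lamb1 and Lamb3 fell, while Lama5, the most abundant alpha chain, differed little. The alpha and beta chain genes of laminin-332 were therefore both lower in MPC-PTX, and of the chain genes of laminin-511 1 rose, 1 fell and 1 was not called. Of the 9 listed chains, 6 had enough counts to be tested by edgeR's quasi-likelihood test, with calls at a Benjamini-Hochberg adjusted p below 0.05. In that test 1 of the 6 was called higher, where 14.1% of all 11795 tested genes were, and 3 were called lower, where 15.6% of all genes were. In 5 of the 6 tested chains the libraries of the lines did not overlap in CPM (counts put on a common depth with TMM), against 46.9% of all genes. By the study's own rule, an unadjusted p below 0.05 with an absolute log2 fold change above 1, edgeR called 8.11% of all genes and 0 of the 6 listed chains, and DESeq2 also called 0, although 5 of the 6 had an unadjusted p below 0.05. The log2 fold changes of the tested listed chains thus all stayed under 1 in size. The paper names Lamc1 among the matrix receptor pathway genes that it reports as significantly higher in MTC-R. Here Lamc1 had the same direction but not the size that the rule asks for, at 0.39 in edgeR and 0.35 in DESeq2.

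The libraries held 16574580 to 23148182 counts and 13897 to 14295 detected genes. The MPC libraries were spread more widely than the MPC-PTX libraries. Relative to the MPC mean, Spearman's rho across 10590 genes, which are not independent, was taken between a library's log2 CPM and transcript GC content. It was 0.54, 0.40 and -0.66 in MPC replicates 1, 2 and 3 and -0.12 to -0.23 in MPC-PTX. Deviations of the MPC libraries from their own mean cancel out, so they cannot all go the same way. The chi-square per gene between counts was 14.9 for MPC replicates 1 and 2, 60.7 for 1 and 3, and 32.2 for 2 and 3. By that measure MPC replicate 3 stood apart. Calls were therefore repeated without it, and all 3 falls and the rise among the listed chains were called again in that fit. It also called more genes in general, with 3020 of 11896 higher and 3227 lower. With all 6 libraries, 1668 of 11795 were called higher and 1841 lower. Summed CPM of 7 epithelial markers was 7880 to 9060 in MPC and 4631 to 4759 in MPC-PTX, and 6 of the 7 were called lower. Gastric markers Tff1, Tff2 and Gkn2 were at 0 counts in all 6 libraries, while the 9 gastric markers together summed to 575 to 749 CPM in MPC and 198 to 205 CPM in MPC-PTX. Basal epithelial markers, a list of 5, summed to 4.36 to 6.49 CPM in MPC and 31.9 to 33.6 CPM in MPC-PTX, with 2 of the 3 tested called higher and 1 lower. Most of that sum in MPC-PTX was Krt14, with a mean of 0.479 CPM in MPC and 29.8 CPM in MPC-PTX, while Krt15 fell from 4.28 to 0.361 CPM. Markers of fibroblasts, endothelium, muscle and leukocytes summed to at most 12.6 CPM per list in any library. What part these epithelial differences had in the laminin results was not tested, and in bulk RNA fewer cells of a type cannot be told apart from less RNA per cell.

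**Figure D1:**
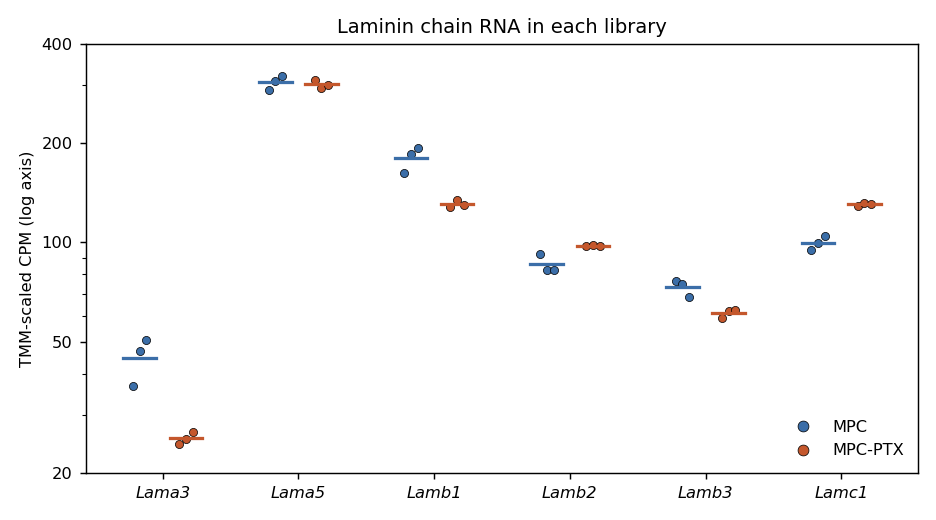
TMM-scaled CPM on a log axis for the 6 tested laminin chains, with 1 point per library and a bar at the mean of 3 MPC (blue) or 3 MPC-PTX (orange) libraries. Points of the lines are separate for every chain shown except Lama5, with Lamc1 up and Lama3, Lamb1 and Lamb3 down in MPC-PTX.

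Lamc1, which encodes the gamma1 chain shared by most laminins, was the chain that rose. It had 95.0, 99.9 and 105 CPM in the MPC libraries and 129, 132 and 131 CPM in the MPC-PTX libraries. All MPC-PTX libraries were above all MPC libraries, with means of 99.8 ± 4.75 and 130.4 ± 1.23 CPM (SD, n = 3 each). The log2 fold change was 0.39 (SE 0.06, edgeR's quasi-likelihood test, Benjamini-Hochberg adjusted p = 0.00394). In GENCODE M21 (GRCm38) the gene spans 153218922 to 153332786 on the minus strand of chromosome 1. The 11 other tested genes that start within 1 Mb of Lamc1 had a median log2 fold change of -0.15, with 3 called higher and 4 lower, against 0.04 over all genes and 0.08 on chromosome 1. Lamc3, the gamma3 chain gene, had 2, 2 and 3 counts in MPC and 6, 2 and 1 in MPC-PTX, too few to test.

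**Figure D2:**
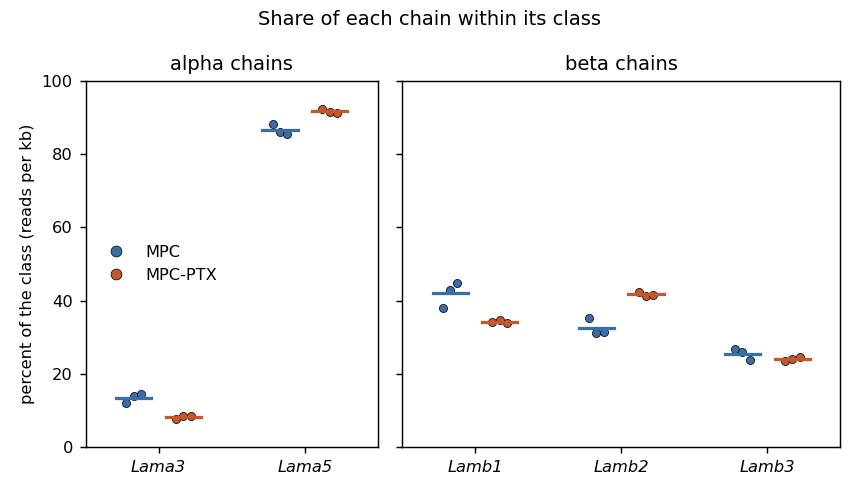
Share of each tested alpha and beta chain in the summed reads per kilobase of its class, in percent, with 1 point per library and a bar at the mean of 3 libraries per line. The share of Lamb2 goes from 32.5 to 41.8%, while Lama5 holds over 85% of the alpha class in every library.

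Among the alpha chains only Lama5 and Lama3 had enough counts to be tested. Lama3 (chromosome 18, 12333819 to 12583013), the alpha chain gene of laminin-332, had 36.8, 46.9 and 50.5 CPM in MPC and 24.5, 25.4 and 26.6 CPM in MPC-PTX. The lines did not overlap, though the MPC libraries were well spread, with means of 44.7 ± 7.09 and 25.5 ± 1.02 CPM (SD, n = 3 each). The log2 fold change was -0.81 (SE 0.13, edgeR's quasi-likelihood test, Benjamini-Hochberg adjusted p = 0.00328). Of the 9 tested genes starting within 1 Mb of Lama3, 2 were called higher and 0 lower, with a median log2 fold change of 0.29, while Lama3 fell.

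Lama5 (chromosome 2, 180176373 to 180225859), the alpha chain gene of laminin-511 and laminin-521, had 290, 309 and 319 CPM in MPC and 310.6, 295 and 300 CPM in MPC-PTX. The libraries of the lines were interleaved, and the means were 306 ± 15.0 and 302 ± 8.01 CPM (SD, n = 3 each). The log2 fold change of -0.02 (SE 0.06, adjusted p = 0.821 in the same edgeR test) had a 95% interval from -0.16 to 0.12. Levels of different genes were compared per kilobase of merged exon (FPKM). With Lama3 lower and Lama5 level, the share of Lama5 in the alpha class was 88.1, 86.1 and 85.6% in MPC and 92.3, 91.6 and 91.4% in MPC-PTX. Its mean share rose from 86.6 ± 1.33% to 91.7 ± 0.466% (SD, n = 3 each), with p = 0.1 in the exact permutation test, the smallest possible. The ratio of Lama5 to Lama3 per kilobase was 6.51 in MPC and 11.2 in MPC-PTX.

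The other alpha chain genes were at the edge of detection. Lama1, the alpha chain gene of early embryonic basement membranes, had 0 counts in every MPC library and 0, 0 and 1 in the MPC-PTX libraries. Lama2, known from muscle and peripheral nerve, had 1, 2 and 2 counts in MPC and 0, 4 and 0 in MPC-PTX. Lama4, known from blood vessels, had 0, 1 and 2 counts in MPC and 1, 2 and 1 in MPC-PTX. A count of 0 allows up to 3 counts in a library, which is 0.128 to 0.178 CPM at these depths and covers counting error only, so no difference in these chains was detectable at this depth. The trimers built on alpha1, alpha2 or alpha4 therefore had almost no alpha chain RNA in either line.

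Of the 3 beta chain genes, Lamb1 and Lamb3 fell and Lamb2 did not pass the test. Lamb1 (chromosome 12, 31265234 to 31329644), whose product pairs with gamma1 in laminin-511, had 163, 186 and 193 CPM in MPC and 128, 135 and 130 CPM in MPC-PTX. All MPC-PTX libraries were below all MPC libraries, with means of 180 ± 15.8 and 131 ± 3.36 CPM (SD, n = 3 each). The log2 fold change was -0.46 (SE 0.08, edgeR's quasi-likelihood test, Benjamini-Hochberg adjusted p = 0.00452). Lamb2 (chromosome 9, 108479736 to 108490530), the beta chain gene of laminin-521, had 92.2, 82.6 and 82.6 CPM in MPC and 97.7, 98.5 and 97.3 CPM in MPC-PTX. The lines were separate here too, with means of 85.8 ± 5.57 and 97.8 ± 0.610 CPM (SD, n = 3 each), but the test was not passed. The log2 fold change of 0.19 (SE 0.07, adjusted p = 0.0814 in the same edgeR test) had a 95% interval from 0.03 to 0.35. Without MPC replicate 1, the highest MPC library for this gene, Lamb2 was called higher at 0.24 (edgeR, adjusted p = 0.0148), and with a correction for GC content and length it was called at 0.23 (edgeR, adjusted p = 0.00766).

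Lamb3 (chromosome 1, 193207699 to 193343878), which encodes the beta chain of laminin-332, had 76.2, 75.1 and 68.4 CPM in MPC and 58.9, 62.1 and 62.4 CPM in MPC-PTX. All MPC-PTX libraries lay below the lowest MPC library, and the means were 73.2 ± 4.25 and 61.1 ± 1.94 CPM (SD, n = 3 each). This was the smallest of the called changes, with a log2 fold change of -0.26 (SE 0.07, edgeR's quasi-likelihood test, Benjamini-Hochberg adjusted p = 0.0341). The call was lost without MPC replicate 2 (adjusted p = 0.114 in the same edgeR test) and without MPC-PTX replicate 1, 2 or 3 (edgeR, adjusted p = 0.151, 0.117 and 0.109), while the log2 fold change stayed between -0.22 and -0.36 in all 16 alternatives.

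Within the beta class the share of Lamb2 rose and that of Lamb1 fell. The class total fell too, from 43.4 ± 0.276 to 38.5 ± 0.631 FPKM (SD, n = 3 each). A share can rise because other chains fall, and Lamb2 itself was not called in the main fit. Lamb2 took 35.2, 31.1 and 31.3% of the class per kilobase in MPC and 42.4, 41.3 and 41.6% in MPC-PTX. Lamb1 took 38.1, 42.9 and 44.9% in MPC and 34.1, 34.7 and 33.9% in MPC-PTX. Neither chain's libraries overlapped between the lines, and both exact permutation tests gave p = 0.1, the smallest possible. The share of Lamb3 was 25.5 ± 1.51% and 24.0 ± 0.502% (SD, n = 3 each), a difference within the spread of the libraries (exact permutation p = 0.3). By merged exons Lamb2 passed Lamb1 in MPC-PTX, at 16.1 against 13.2 FPKM, but by the longest transcript it stayed below, at 17.4 against 22.6 FPKM. The change in the Lamb2 share was upwards with either length, from 24.8 to 33.1% with the longest transcript.

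Sequence upstream of the RefSeq start is shown for the tested chains that the RefSeq promoter table held, so that the 3 beta chain genes can be compared with each other and with Lama5. The table had a row for 5 of the 10 chains, and 4 of these were tested. The other tested chains were Lama3 and Lamc1. The window was the 250 bases before the RefSeq start, cut short where a GENCODE exon of the gene begins, which leaves 249 bases for Lamb3, 191 for Lamb1 and 124 for Lamb2. The Lamb3 stretch lies inside the GENCODE span of the gene given above, which begins further upstream, whereas the other stretches end at the GENCODE start. Bases are given 5′ to 3′ in the direction of transcription, and capitals mark matches on either strand to the letters GGGCGG (the GC box), CCAAT (the CCAAT box), TGACTCA (an AP-1 site) or TATAAA (the TATA box).
Lamb1, GRCm38.p6, chr12:31265043-31265233, plus strand: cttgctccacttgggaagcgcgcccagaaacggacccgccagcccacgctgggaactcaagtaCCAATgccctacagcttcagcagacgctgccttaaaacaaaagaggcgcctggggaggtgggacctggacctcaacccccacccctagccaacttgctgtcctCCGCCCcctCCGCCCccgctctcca
Lamb2, GRCm38.p6, chr9:108479612-108479735, plus strand: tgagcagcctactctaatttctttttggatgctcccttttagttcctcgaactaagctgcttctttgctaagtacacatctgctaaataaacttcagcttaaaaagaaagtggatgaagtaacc
Lamb3, GRCm38.p6, chr1:193301744-193301992, plus strand: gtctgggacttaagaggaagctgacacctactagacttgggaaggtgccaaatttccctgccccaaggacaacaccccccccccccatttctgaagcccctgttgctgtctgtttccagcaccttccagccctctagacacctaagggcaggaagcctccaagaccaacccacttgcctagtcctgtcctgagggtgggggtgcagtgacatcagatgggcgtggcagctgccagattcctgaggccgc
Lama5, GRCm38.p6, chr2:180225860-180226109, minus strand: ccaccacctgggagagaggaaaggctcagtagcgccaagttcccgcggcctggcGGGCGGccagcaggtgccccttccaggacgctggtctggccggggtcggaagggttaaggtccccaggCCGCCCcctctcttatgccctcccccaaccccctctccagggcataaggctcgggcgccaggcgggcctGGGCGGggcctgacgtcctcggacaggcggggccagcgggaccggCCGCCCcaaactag
The Lamb1 stretch held 2 GC box matches and 1 CCAAT match, and the Lama5 stretch held 4 GC box matches. The Lamb2 and Lamb3 stretches held none of the 4 sets of letters, and no AP-1 or TATA match was present in any of the 4 genes' windows. Over all 32851 windows of 250 bases in the table, 32.7% held a GC box match, 33.8% a CCAAT match, 4.5% an AP-1 match and 12.4% a TATA match. The GC content of the printed bases was 72.4% for Lama5, 63.9% for Lamb1, 58.6% for Lamb3 and 37.9% for Lamb2. These are matches of letters only. Lamb1, which fell, and Lama5, which was level, both held GC box matches, and Lamb3, which fell, and Lamb2, which was not called, both held none. The stretches differ in length, and whether these letters bear on any change was not tested.

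Ordered by FPKM over merged exons in MPC, the tested chains ran Lama5 (26.9 ± 1.32 FPKM), Lamb1 (18.2 ± 1.59 FPKM), Lamb2 (14.1 ± 0.915 FPKM), Lamc1 (12.1 ± 0.575 FPKM), Lamb3 (11.1 ± 0.642 FPKM) and Lama3 (4.16 ± 0.659 FPKM). The libraries of Lamc1 and Lamb3 overlapped, so these neighbours were not separated. In MPC-PTX the order was Lama5 (26.5 ± 0.703 FPKM), Lamb2 (16.1 ± 0.10 FPKM), Lamc1 (15.8 ± 0.148 FPKM), Lamb1 (13.2 ± 0.339 FPKM), Lamb3 (9.25 ± 0.293 FPKM) and Lama3 (2.37 ± 0.0950 FPKM), SD over 3 libraries throughout. Lama5 was thus highest and Lama3 lowest in both lines. With the longest transcript as the length, Lamb1 (31.2 FPKM) stood above Lama5 (26.9 FPKM) in MPC, while Lama3 was lowest under both lengths in both lines.

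Read as trimers, the RNA of the lowest chain sets a ceiling on how much trimer the measured RNA could match, though RNA does not measure protein or assembly. For laminin-311 and laminin-321, which pair the product of Lama3 with gamma1, the lowest chain was Lama3 in every library, at 3.43, 4.36 and 4.70 FPKM in MPC and 2.28, 2.37 and 2.47 FPKM in MPC-PTX. The ceiling fell with Lama3 and had the same fold change, since Lamb1, Lamb2 and Lamc1 were above it in all libraries. Lamb3, the beta partner of Lama3 in laminin-332, was above it too, at 8.91 FPKM or more in every library. For laminin-521 the lowest chain was Lamc1 in every library, and its level went from 12.1 ± 0.575 to 15.8 ± 0.148 FPKM (SD, n = 3 each). This ceiling is the level of Lamc1 itself, which laminin-511, laminin-311 and laminin-321 also need. The ceilings of these trimers are therefore not separate results and could not all be reached at once. For laminin-511 the lowest chain was Lamc1 in MPC (12.1 FPKM) and Lamb1 in MPC-PTX (13.2 ± 0.339 FPKM), where the rise of Lamc1 and the fall of Lamb1 crossed. With the longest transcript the lowest chain of laminin-511 was Lamc1 in both lines, at 13.1 and 17.1 FPKM. Trimers with alpha1, alpha2, alpha4 or gamma3 had a lowest chain at no more than 0.0421 FPKM in any library.

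**Figure D3:**
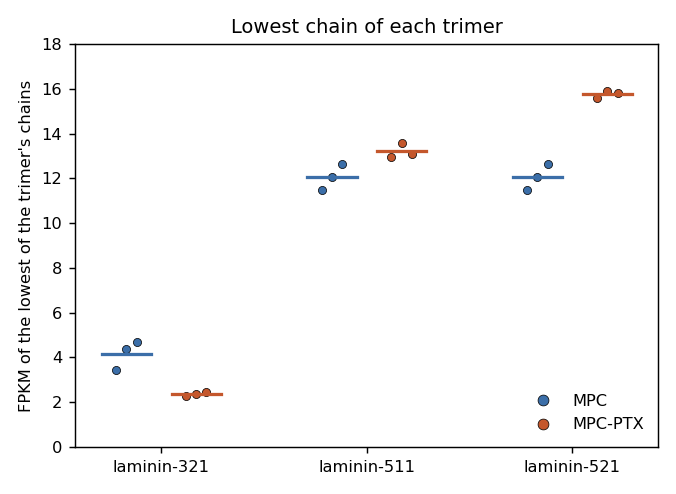
FPKM of the least abundant of each trimer's 3 chain genes, with 1 point per library and a bar at the mean of 3 libraries per line. Laminin-321 goes down from 4.16 to 2.37 FPKM with Lama3, laminin-521 goes up from 12.1 to 15.8 FPKM with Lamc1, and laminin-511 lies between 11.5 and 13.6 FPKM.

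**Figure D4:**
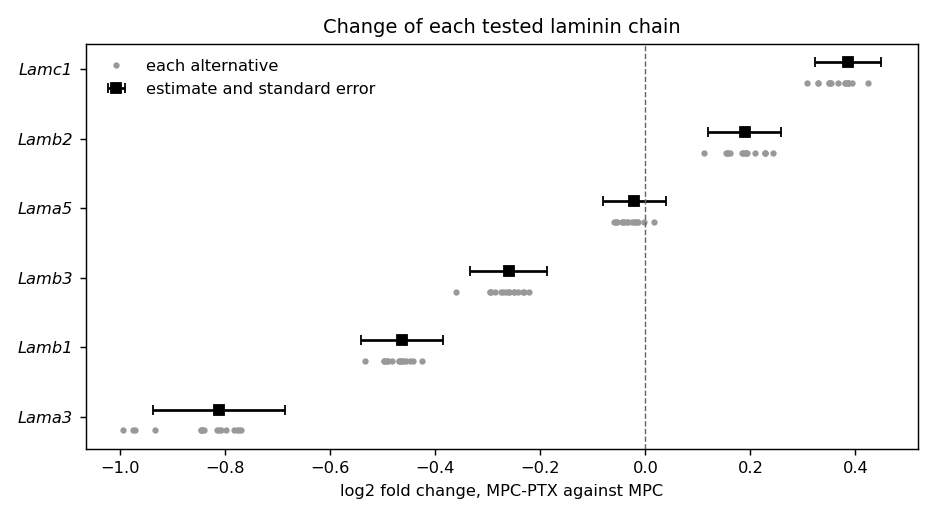
Log2 fold change of each tested chain in MPC-PTX against MPC, as the edgeR estimate with its standard error (black) and as the estimates of 16 alternatives (grey). Every estimate for Lamc1 and Lamb2 lies above 0 and every estimate for Lamb3, Lamb1 and Lama3 below 0, while Lama5 lies on both sides.

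The genes around the laminin chains were read from lists. Of 17 laminin receptor genes 16 were tested, 1 was called higher and 6 were called lower. Over all tested genes, 14.1% were called higher and 15.6% lower. The median log2 fold change of the receptor genes was -0.28, against 0.04 over all tested genes. The number called lower ranged from 3 to 10 over the alternatives, with 10 without MPC replicate 3 and 3 without MPC-PTX replicate 2 or 3. Calls over all genes moved too. Without MPC replicate 3, 3227 of 11896 genes were called lower. Without MPC-PTX replicate 2 it was 1077 of 11908, and without MPC-PTX replicate 3 it was 1100 of 11962. Itga3, whose integrin binds laminin-332 and laminin-511, fell from 802 ± 80.4 to 657 ± 7.19 CPM (SD, n = 3 each; log2 fold change -0.29, edgeR with Benjamini-Hochberg adjustment, adjusted p = 0.0341), a call lost without MPC replicate 2 and without any 1 MPC-PTX library. Itgb1, its integrin partner, had 750 ± 101 and 877 ± 5.07 CPM and did not pass the test, but was called higher in 4 alternatives, among them the fit without MPC replicate 3 and the GC content and length correction. Chosen after their values were seen, Dag1, the dystroglycan gene, fell by 0.51 on the log2 scale and Bcam, a receptor for the alpha5 chain, fell by 0.28. Itga2 had the largest called fall of the list, from 357 ± 94.2 to 181 ± 9.37 CPM (SD, n = 3 each; log2 fold change -0.98). The calls for Dag1 and Itga2 held under every alternative, and that for Bcam was lost without MPC replicate 2 and without any 1 MPC-PTX library. The heparan sulphate proteoglycan gene Sdc2 rose from 5.70 ± 0.182 to 18.2 ± 1.59 CPM (SD, n = 3 each), with a log2 fold change of 1.67. Sdc1 and Sdc4, more abundant genes of the same family on the list, were called lower. Sdc1 fell from 598 ± 58.9 to 419 ± 5.85 CPM (log2 fold change -0.51), a call that held under every alternative. Sdc4 fell from 388 ± 22.9 to 310 ± 6.96 CPM (log2 fold change -0.33), a call lost without MPC-PTX replicate 2 or 3.

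Among hemidesmosome genes, which attach epithelial cells to laminin-332, 6 of 7 were tested and 0 passed edgeR's adjusted test. At an unadjusted p below 0.05, 1 of them (Itga6) was lower, DESeq2 called 1 lower, and edgeR without MPC replicate 3 called 1 higher and 3 lower. Itga6 was called lower in 10 of the 16 alternatives. The median log2 fold change was -0.01. Itgb4, the integrin chain of the hemidesmosome, had 229 ± 13.4 CPM in MPC and 222 ± 4.00 CPM in MPC-PTX (SD, n = 3 each). Itga6, its partner, had 156, 204 and 245 CPM in MPC and 142, 144 and 147 CPM in MPC-PTX, separate but widely spread in MPC (log2 fold change -0.48, edgeR with Benjamini-Hochberg adjustment, adjusted p = 0.0540). Whether the hemidesmosome genes and the chains of laminin-332 differed in their change was not tested.

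Of 20 basement membrane partners 17 were tested, with 9 called higher and 4 called lower. Over all tested genes, 14.1% were called higher and 15.6% lower. The median log2 fold change of the partners was 0.25, against 0.04 over all tested genes. Without MPC replicate 2, and without any 1 MPC-PTX library, 7 were called higher and 2 lower. Without MPC replicate 3, 9 were called higher and 5 lower. Nid1, the nidogen that binds gamma1, was low in MPC at 2.15 ± 0.395 CPM and fell to 0.276 ± 0.173 CPM in MPC-PTX (SD, n = 3 each; log2 fold change -3.02), while Lamc1, which encodes its partner, rose. Nid2, the other nidogen gene, had 0 to 3 counts in any library. Col18a1, a basement membrane collagen, fell from 144 ± 3.62 to 59.7 ± 1.79 CPM, and Npnt, nephronectin, from 567 ± 75.5 to 419 ± 6.96 CPM, the latter a call lost without MPC replicate 2 and without any 1 MPC-PTX library. Sparc, Smoc1 and Fbln1, genes of matrix proteins at low level here, rose by log2 fold changes of 1.21, 1.09 and 1.83, with Fbln1 not called without MPC replicate 2. Some collagen IV genes and Hspg2 were also called higher. Col4a1 rose from 497 ± 20.2 to 593 ± 8.52 CPM, a call lost in 4 alternatives, among them each fit without 1 MPC-PTX library. Col4a2 rose from 209 ± 14.2 to 307 ± 4.62 CPM and Hspg2 from 32.4 ± 3.60 to 47.8 ± 1.86 CPM. Col4a3 and Col4a4, at low level, rose by 1.49 and 1.44 on the log2 scale, while Col4a5 and Col4a6 were not called. Fbln2, which binds several laminins, stood at 381 ± 11.5 and 377 ± 5.62 CPM and did not pass the test.

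Of 8 netrins and laminin-related genes, which carry laminin-type domains, 3 were tested. Ntn4, whose product binds gamma1 and can disrupt laminin networks, fell from 35.0 ± 3.68 to 22.1 ± 0.254 CPM (SD, n = 3 each), with a log2 fold change of -0.66. Ntn1 rose from 19.4 ± 2.86 to 28.6 ± 2.42 CPM, a call lost without MPC replicate 2 and without MPC-PTX replicate 1 or 2, and Ntng1 rose from 0.340 ± 0.0837 to 3.45 ± 0.355 CPM. Of 16 genes that process laminin chains or build the glycan of their receptor dystroglycan, 12 were tested, 1 was called higher and 1 lower. Over all tested genes, 14.1% were called higher and 15.6% lower. The number called higher in this list ranged from 0 to 5 over the alternatives, with 4 without MPC replicate 3 and 0 with DESeq2. Bmp1, a protease that cuts laminin chains, was chosen after its value was seen and fell from 86.0 ± 4.74 to 57.8 ± 2.71 CPM.

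**Figure D5:**
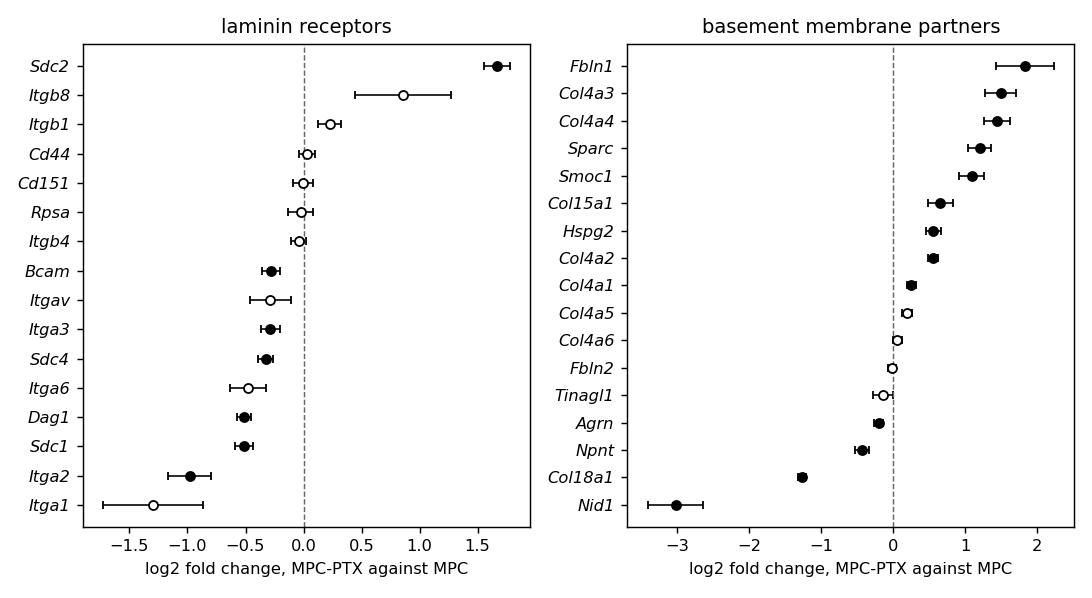
Log2 fold change with its standard error (edgeR) for tested laminin receptor genes and basement membrane partners, MPC-PTX against MPC, with filled points for an adjusted p below 0.05. Among receptors 1 filled point lies above 0 and 6 below, and among partners 9 lie above 0 and 4 below. Over all tested genes, 14.1% were called higher and 15.6% lower.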

How the data were processed

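RNA of 3 libraries of MPC and 3 of MPC-PTX was poly-T selected and sequenced. The authors used fastp 0.22.0 to filter the reads and HISAT2 to map them, and deposited raw counts of reads per gene, neither normalized nor pooled. The counting tool, annotation, genome build and use of strand are not given in the sources used here, so reads of genes that overlap a laminin gene cannot be told apart from its own. The 6 sample tables equalled the series table.

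From these counts, 11795 genes past filterByExpr (minimum count 10) were tested with edgeR 4.0.16 (TMM, robust glmQLFit, glmQLFTest; R 4.3.3), MPC-PTX against MPC, with Benjamini-Hochberg adjustment. FPKM is TMM-scaled CPM per kilobase of merged exon in GENCODE M21 (GRCm38), matched by Ensembl identifier. Class shares were compared by an exact two-sided permutation test. Replicates of a line differed by more than sampling noise, with a chi-square per gene of 1.84 or more.

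Alternatives were DESeq2 1.42.0, other scalings and filters, the replicate number as a block, a loess correction for GC content and length (span 0.3), no robust estimation, each library left out, and other lengths. The members and lists were chosen with earlier results of these data known. Genes of the lists were named where the adjusted p was below 0.05 with an absolute log2 fold change above 1, or for the 3 highest mean CPM of a list. Some of these, and some laminin results, are not reported here.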

Additional observations from a re-analysis of the deposited data

How the results depend on the processing

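The directions of Lama3, Lamb1, Lamb2, Lamb3 and Lamc1 were the same in all 16 alternatives, and no call turned. The number of listed chains called higher went from 1 to 2, with Lamb2 added, under library size alone, the GC content and length correction, the replicate block with that correction, and the fit without MPC replicate 3 with that correction, which was chosen after seeing the data. Over the fits that left out 1 library, 1 to 2 listed chains were called higher and 2 to 3 lower, and 0 met the study's rule. Lamb3 lost its call under library size alone (adjusted p = 0.0549 in edgeR) besides the fits named above. Lama5 went from -0.06 to 0.02 and was never called. The gain of Lama5 in the alpha class was 5.12 percentage points, 6.15 with the GC content and length correction, and 4.61 to 5.87 with 1 library left out. The share of Lamb3 differed by -1.54 points, -0.59 with the longest transcript, -0.50 with reads not divided by length, and -0.93 to -2.38 with 1 library left out. The largest difference, without MPC replicate 3, had an exact permutation p of 0.1, the smallest that 2 libraries against 3 allow.

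The labels do not say whether same-numbered libraries were paired. Deviations of same-numbered libraries correlated at 0.15, -0.02 and 0.17. MPC replicates 1 and 3 correlated best with the MPC-PTX library of their own number, and MPC replicate 2 with MPC-PTX replicate 1 (0.15). These values do not settle whether the libraries were paired. With the replicate number as a block, 1 listed chain was called higher and 2 lower, Lamb3 being lost (adjusted p = 0.0654 in edgeR), and with the block and the GC content and length correction 2 were called higher and 3 lower. Over all genes, 1668 were called higher and 1841 lower, against 3020 and 3227 without MPC replicate 3, 2505 and 2591 with the GC content and length correction, and 803 to 840 and 1077 to 1122 without 1 MPC-PTX library. The median over all genes lay at 0.04, at 0.08 under library size alone and at 0.01 with DESeq2's size factors. The causes were not tested. Lama1, Lama2, Lama4 and Lamc3 had too few counts for a test at this depth.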
